A study of Homo sapiens with 6 samples.

Results

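ISG15 is a small ubiquitin-like protein that cells attach to other proteins after exposure to type I interferon. The 6 genes described here encode its core conjugation machinery: the modifier ISG15, the activating (E1) enzyme UBA7, the conjugating (E2) enzyme UBE2L6, the ligases (E3) HERC5 and HERC6, and the protease USP18. They were taken by gene symbol, for a pathway proposed with earlier results of these libraries known, and are 6 of 20683 genes in the count tables. All 6 passed the filter on low counts, which left 11216 genes for testing.

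The counts come from the human fibrosarcoma line HT-1080, an established cell line, treated for 24 h. The inhibitor group received SLV-8472-01, a code name for an IRAK4 inhibitor, at a labelled 5 mM, whose unit could not be verified from the files. The DMSO group received 0.1% DMSO, the solvent control. Each group had 3 libraries, described by the series as biological replicates. The labels do not say whether the inhibitor dishes also held DMSO.

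In the conjugation pathway UBA7 activates ISG15, UBE2L6 receives it, and a HERC ligase directs it to target proteins. In human cells HERC5 is regarded as the main ligase, and HERC6 is its close relative. USP18 removes ISG15 from proteins and, separately, binds the interferon receptor chain IFNAR2 and dampens its signal. Transcription of these genes is classically driven by a complex that holds STAT2 and IRF9 and binds interferon-stimulated response elements in promoters. IRAK4 is the kinase that carries signals from Toll-like and interleukin-1 receptors through MYD88.

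Promoters of ISG15, HERC6 and HERC5 are shown because the first 2 genes rose and the third, a close relative of HERC6, gave no detectable difference. Each is the 250 bases before the annotated gene start, from RefSeq on GRCh38.p14. The counts belong to hg19, per the submitters' processing notes, and nothing was converted between builds. The sequences lie at chr1:1013247-1013496, chr4:88378602-88378851 and chr4:88456869-88457118, all on the plus strand. RefSeq promoters matched 4 of the 6 members, the other being that of UBE2L6, and UBA7 and USP18 are named only. Capitals mark blocks of 4 letters that occur again after a gap of 2 letters.
ISG15: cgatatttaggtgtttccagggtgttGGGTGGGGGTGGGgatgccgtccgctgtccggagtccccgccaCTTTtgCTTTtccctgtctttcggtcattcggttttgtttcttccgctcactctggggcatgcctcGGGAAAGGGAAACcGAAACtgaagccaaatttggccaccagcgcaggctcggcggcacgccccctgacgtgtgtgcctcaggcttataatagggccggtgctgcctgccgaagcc
HERC6: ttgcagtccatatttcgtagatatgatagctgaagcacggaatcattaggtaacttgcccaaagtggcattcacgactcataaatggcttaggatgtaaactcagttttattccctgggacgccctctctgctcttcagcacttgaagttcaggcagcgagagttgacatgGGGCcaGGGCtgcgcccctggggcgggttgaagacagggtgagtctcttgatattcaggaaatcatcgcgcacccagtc
HERC5: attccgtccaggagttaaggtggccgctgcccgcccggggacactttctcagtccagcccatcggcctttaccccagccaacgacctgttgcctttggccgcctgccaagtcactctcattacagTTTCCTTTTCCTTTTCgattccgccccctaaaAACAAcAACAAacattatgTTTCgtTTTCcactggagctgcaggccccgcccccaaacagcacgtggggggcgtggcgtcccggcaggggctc

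The ISG15 window held 10 such repeats, that of HERC5 9 and that of HERC6 1, with overlapping repeats counted separately and blocks of a single letter left out. Of 35116 RefSeq promoters of the same length, 78.1% held at least 1, so the presence of a repeat does not set these genes apart. The repeats describe letters and not bound sites. The rule uses no given motif, so by itself it does not tell whether a promoter holds an interferon-stimulated response element. A marked repeat may or may not belong to one.

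ISG15, the modifier itself, rose in the inhibitor libraries. Its level was 57.6, 56.6 and 26.7 counts per 1000000 scaled library counts (CPM) in inhibitor 1, 2 and 3, against 12.98, 11.1 and 7.54 CPM in DMSO 1, 2 and 3. Every inhibitor library lay above every DMSO library, although inhibitor 3 stood well under the other inhibitor libraries. The group means were 47.0 ± 17.5 and 10.5 ± 2.76 CPM (SD, n = 3), and their log2 fold change came to 2.14 (SE 0.264, edgeR quasi-likelihood test with Benjamini-Hochberg adjusted p = 0.000445), a 4.41-fold difference. Of the 11216 tested genes, 0.0802% had a higher fold change. Without DMSO 3, which stood apart from the other controls, the log2 fold change was 1.96 (edgeR adjusted p = 8.02e-09), and without inhibitor 3 it was 2.42 (edgeR adjusted p = 7.01e-05).

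HERC6, the close relative of the main human ligase gene HERC5, rose as well. It had 13.6, 12.1 and 6.55 CPM in inhibitor 1, 2 and 3 and 4.77, 4.64 and 3.71 CPM in DMSO 1, 2 and 3. The groups did not overlap, and inhibitor 3 was again the lowest inhibitor library. The means were 10.7 ± 3.70 and 4.38 ± 0.576 CPM (SD, n = 3), which is 1.29 on the log2 scale (SE 0.249, with an edgeR adjusted p of 0.00991). This call was lost when inhibitor 1 (edgeR adjusted p = 0.0851), inhibitor 2 (0.0924) or DMSO 2 (0.0542) was left out. Without DMSO 3 the log2 fold change was 1.19 (edgeR adjusted p = 0.000252).

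USP18, the deconjugating protease gene, did not pass the test over all 6 libraries. Its level was 9.07, 7.40 and 3.43 CPM in inhibitor 1, 2 and 3, against 3.52, 3.65 and 3.60 CPM in DMSO 1, 2 and 3. The groups overlapped because inhibitor 3 lay below all 3 DMSO libraries, which differed little from each other, while inhibitor 1 and 2 lay above them. The log2 fold change was 0.90 (SE 0.288, 95% interval 0.29 to 1.52, edgeR adjusted p = 0.0987, unadjusted p = 0.0073). It passed without inhibitor 3, at 1.196 (edgeR adjusted p = 0.0186), and without DMSO 3, at 0.90 (edgeR adjusted p = 0.0136). USP18 has a near-identical relative, USP41, whose transcript could share reads with it. The count tables hold no gene under the symbol USP41. The USP18 counts could include its reads and are uncertain to that extent.

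HERC5, the main human ligase gene, was scarcely read and gave no detectable difference. It had 26, 17 and 7 counts in inhibitor 1, 2 and 3 and 20, 19 and 7 counts in DMSO 1, 2 and 3. The groups overlapped throughout, and replicate 3 was the lowest in each. The summed counts were 50 and 46, a ratio of 1.14 with an exact 95% interval of 0.751 to 1.75 that covers counting error only. The log2 fold change was 0.19 (SE 0.394, 95% interval -0.65 to 1.04, edgeR adjusted p = 0.839), and it turned to -0.19 without inhibitor 1 and to -0.02 without DMSO 3. At this depth a change as large as that of ISG15 lies outside the interval, while a 1.5-fold change in either direction lies inside it.

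UBA7, the activating enzyme gene, was read at nearly the same level in the inhibitor libraries and varied more among the DMSO libraries. It had 27.8, 28.3 and 26.3 CPM in inhibitor 1, 2 and 3 and 21.6, 25.6 and 26.1 CPM in DMSO 1, 2 and 3. The lowest inhibitor value lay just above the highest DMSO value, so the groups did not overlap, but the gap was 0.197 CPM. The log2 fold change was 0.17 (SE 0.135, 95% interval -0.12 to 0.46, edgeR adjusted p = 0.527).

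UBE2L6, the conjugating enzyme gene, overlapped between the groups. It had 19.6, 14.9 and 13.5 CPM in inhibitor 1, 2 and 3 and 13.8, 17.4 and 9.68 CPM in DMSO 1, 2 and 3. DMSO 2 lay above 2 of the inhibitor libraries. The log2 fold change was 0.22 (SE 0.207, 95% interval -0.22 to 0.67, edgeR adjusted p = 0.61).

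**Figure D1:**
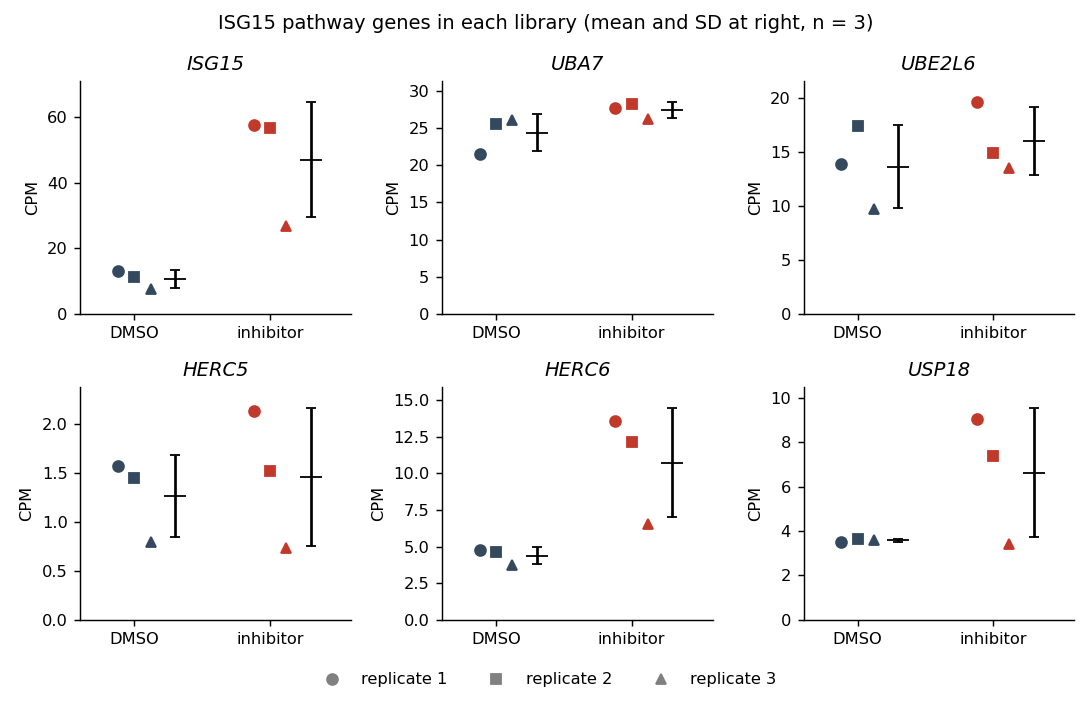
CPM of each of the 6 genes (vertical axes from 0) in the 3 DMSO and the 3 inhibitor libraries, with symbols for replicate number and the mean and SD to the right of each group. ISG15 and HERC6 separate the groups, with inhibitor 3 at 26.7 and 6.55 CPM, while USP18 in inhibitor 3, at 3.43 CPM, lies below all DMSO libraries.

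In sum over the pathway, 2 of 6 members rose and none fell, while 3.87% of all tested genes were called and 1.95% were called higher. The log2 fold change was above 0 for 6 of 6 members, against 49.4% of all tested genes, and its median was 0.56 over the members against -0.00438 over all tested genes. In 3 members the inhibitor libraries lay wholly above the DMSO libraries, as in 13.7% of all tested genes. The members called were 1 without inhibitor 1, without inhibitor 2 or without DMSO 2 (ISG15 in each case), where 0.432%, 0.334% and 0.645% of tested genes were called higher. They were 3 without inhibitor 3 or without DMSO 3 (ISG15, HERC6 and USP18), where 0.607% and 10.8% were called higher. The genes were proposed with earlier results of these libraries known, so their count is not independent evidence of a direction.

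**Figure D2:**
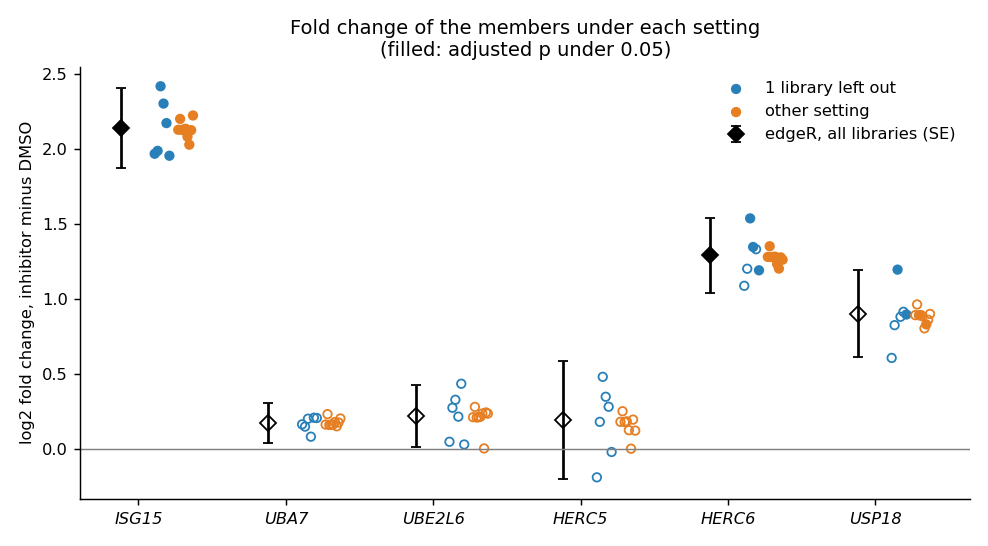
Log2 fold change of inhibitor minus DMSO for each gene, with all libraries (black diamonds, SE), with 1 library left out (blue) and under other settings (orange), filled where the adjusted p is under 0.05. ISG15 is filled throughout, between 1.96 and 2.42, HERC6 loses its call in 3 cases, and HERC5 crosses 0.

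The spread among the inhibitor libraries had a common direction in these genes. Inhibitor 3 was the lowest inhibitor library for 6 of 6 members, as it was for 35.6% of all tested genes. It was also lowest for 27 of the 29 tested genes in a list of other interferon-stimulated genes. DMSO 3 was in turn the lowest DMSO library for ISG15, HERC6, UBE2L6 and HERC5, but not for UBA7 and USP18. Among all tested genes DMSO 3 was the lowest DMSO library in 41.2%. The level in inhibitor 3 divided by the mean of inhibitor 1 and 2 was 0.468 for ISG15, 0.51 for HERC6, 0.417 for USP18, 0.4 for HERC5, 0.784 for UBE2L6 and 0.938 for UBA7. The median of this quotient was 0.626 over the other interferon-stimulated genes and 0.995 over all tested genes. UBA7 thus varied least between the inhibitor libraries, and HERC5, whose values rest on 7 to 26 counts, most.

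Set against the mean of the DMSO libraries, ISG15 was 5.46, 5.37 and 2.53 times as high in inhibitor 1, 2 and 3. HERC6 was 3.10, 2.77 and 1.497 times as high, and USP18 2.52, 2.06 and 0.956 times. The order of ISG15, HERC6 and USP18 was therefore the same in each inhibitor library. UBA7, UBE2L6 and HERC5 lay between 0.575 and 1.68 times the DMSO mean in all inhibitor libraries.

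**Figure D3:**
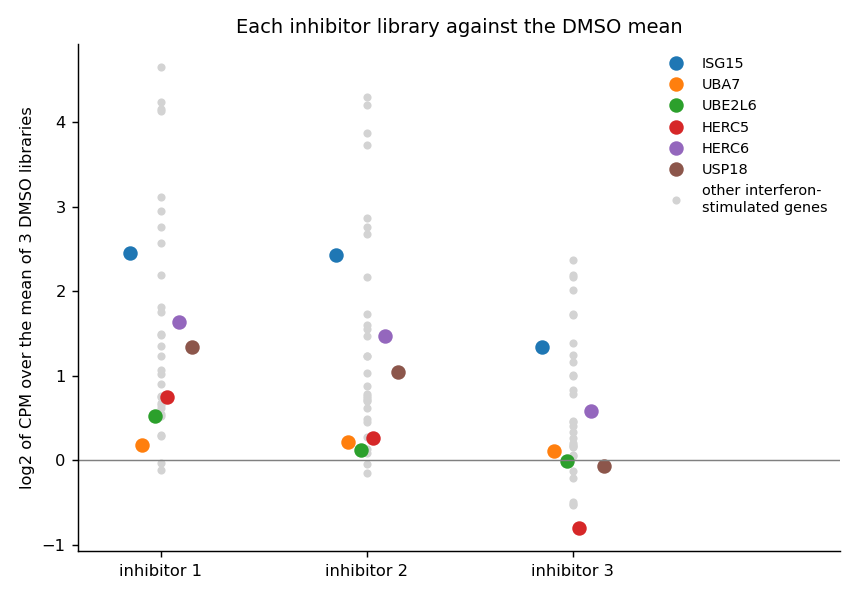
Log2 of CPM in each inhibitor library over the mean of the 3 DMSO libraries, for the 6 members (coloured) and 29 other interferon-stimulated genes (grey). ISG15, HERC6 and USP18 keep their order in all inhibitor libraries, and the members' median fold is 2.10, 1.63 and 1.03 in inhibitor 1, 2 and 3.

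Because the members share each library, their ratios within a library need no scaling for library size. A bias by GC content that differs between libraries would not cancel, however. Gene deviations correlated with GC content at 0.537, 0.129 and -0.493 (Spearman, 9189 genes) in DMSO 1, 2 and 3. In inhibitor 1, 2 and 3 the values were -0.0506, -0.115 and 0.152. GC content of the members ranged from 40.6% for HERC5 to 64.1% for ISG15, and its effect on the ratios was not tested. Counts of different genes depend on how well each amplified, so a ratio is read only for how it differs between groups. The log2 ratio of ISG15 to USP18 was 2.66, 2.93 and 2.94 in inhibitor 1, 2 and 3 and 1.87, 1.59 and 1.05 in DMSO 1, 2 and 3. The groups did not overlap, and the difference of the means was 1.34. Unlike the level of either gene, this ratio was not lowest in inhibitor 3.

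The log2 ratio of ISG15 to UBA7 was 1.93 higher in the inhibitor group (0.69 ± 0.579 against -1.24 ± 0.527, SD, n = 3), and that of ISG15 to UBE2L6 was 1.85 higher (1.49 ± 0.475 against -0.36 ± 0.275, SD, n = 3). The HERC5 to HERC6 ratio was -2.90 ± 0.222 with inhibitor and -1.80 ± 0.313 with DMSO (SD, n = 3), a difference of -1.10. None of these 4 ratios overlapped between groups. UBE2L6 against its ubiquitin relative UBE2L3 differed by -0.21, and UBA7 against the ubiquitin E1 gene UBA1 by 0.24, with overlapping values for each. For these ratios the two-sided exact permutation p was 0.1 for the 4 that did not overlap, 0.7 for UBE2L6 to UBE2L3 and 0.2 for UBA7 to UBA1. Adjusted over the 6 ratios computed, these were 0.15, 0.7 and 0.24, and 0.1 is the smallest p that 3 against 3 libraries can give, so no ratio could pass 0.05.

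**Figure D4:**
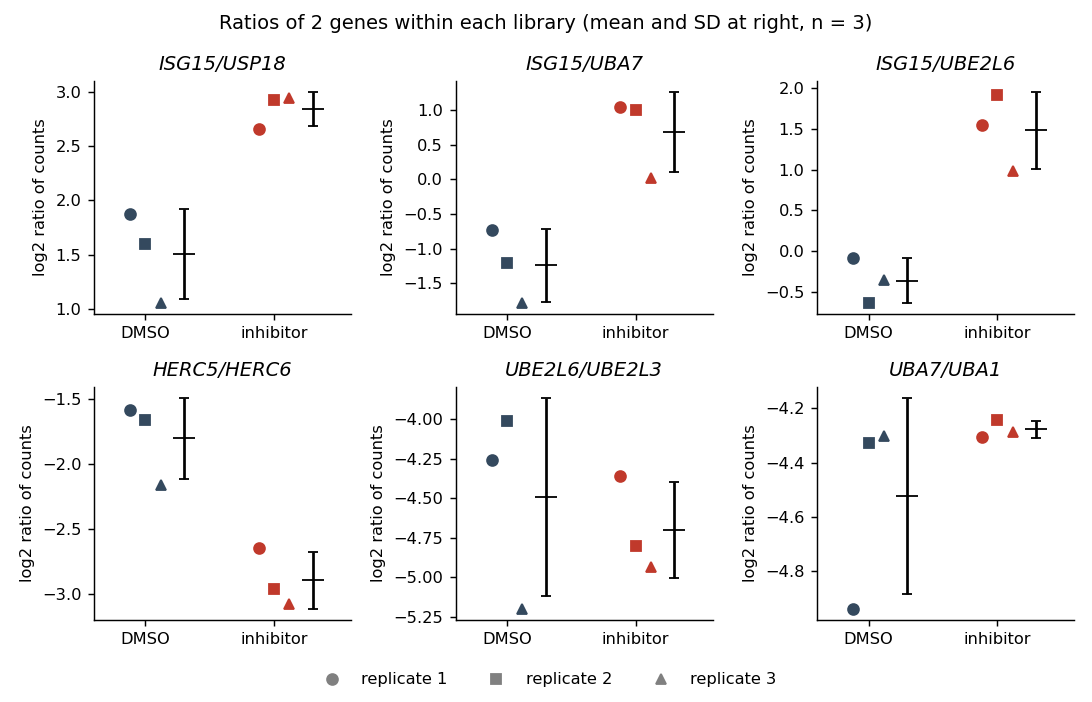
Log2 ratio of raw counts (plus 0.5) of 2 genes in each library, with the mean and SD of each group to the right. The 3 ratios with ISG15 are higher in every inhibitor library than in any DMSO library, and HERC5/HERC6 is lower.

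ISG15 also took a larger share of the reads of the 6 genes. Its share was 44.4% (Wilson 95% interval 42.0 to 46.8), 46.8% (44.2 to 49.5) and 34.6% (31.3 to 38.1) in inhibitor 1, 2 and 3. It was 22.3% (19.4 to 25.4), 17.4% (15.005 to 20.1) and 14.7% (11.7 to 18.2) in DMSO 1, 2 and 3. These intervals cover counting error only, and no interval of one group reaches one of the other. All 6 genes together had 129.7, 120.9 and 77.3 CPM in inhibitor 1, 2 and 3 and 58.3, 63.8 and 51.4 CPM in DMSO 1, 2 and 3.

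To find the genes most like each member, log2 CPM was centred on each gene's mean over the 6 libraries and the root mean square difference was taken, over genes with at least 5 CPM. Nearest to ISG15 of 9064 genes were MX1 (0.304 on the log2 scale), IFI44 (0.313) and IFI27 (0.409), all interferon-stimulated genes, then HSPA1A (0.436), a heat shock gene, and OAS3 (0.447), an oligoadenylate synthetase gene. HSPA1A has a near-identical copy, HSPA1B, so its counts are uncertain. Nearest to HERC6 were OAS1 (0.203) and SAMHD1 (0.206), and nearest to USP18 were DDX60 (0.189) and DTX3L (0.194), which partners an ADP-ribosyltransferase. UBA7 lay closest to DCK (0.0157) and UBE2K (0.031), UBE2L6 to NREP (0.0905) and CCDC51 (0.104), and HERC5 to ZNF398 (0.278) and USP26 (0.283). Among the members themselves HERC6 and USP18 were closest, at 0.273, and ISG15 and UBA7 farthest apart, at 1.06. These distances describe 6 libraries in 2 groups and carry no test.

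Genes that act beside the core enzymes showed few differences. Neither TRIM25 nor ARIH1, ligases also reported to use ISG15, passed the test, with log2 fold changes of -0.06 (SE 0.141) and 0.12 (SE 0.167). TRIM25 had a positive value, of 0.00 and 0.07, with library totals only and without DMSO 1, and ARIH1 a negative one, of -0.05, without DMSO 1. None of 6 tested proteases reported to act on ISG15 passed by edgeR, with 1 at an unadjusted p under 0.05, as had 19.5% of all tested genes. The HERC genes outside the interferon response gave log2 fold changes of -0.31 (SE 0.205) for HERC1, -0.26 (SE 0.15) for HERC2, -0.03 (SE 0.133) for HERC3 and 0.18 (SE 0.136) for HERC4, and none passed by edgeR, while none had an unadjusted p under 0.05. Without DMSO 3, HERC2 passed at -0.36 (edgeR adjusted p = 0.0379) and HERC4 at 0.32 (edgeR adjusted p = 0.0252).

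The ubiquitin-family enzymes that parallel UBA7 and UBE2L6 were likewise mostly below the threshold. None of 9 other E1 genes passed by edgeR or had an unadjusted p under 0.05, with log2 fold changes from -0.14 to 0.24. Among these, UBA1 was at -0.08 (SE 0.124), or 0.04 without DMSO 1, and UBA6 at 0.14 (SE 0.14). Of 25 tested E2 genes, 1 rose and none fell, a share of 4% against 3.87% of all tested genes. The riser was UBE2G1, a ubiquitin E2 gene, at 0.50 (SE 0.128, edgeR adjusted p = 0.0449). Leaving out any library but DMSO 3 ended its call (edgeR adjusted p from 0.085 to 0.239). UBE2L3, the closest relative of UBE2L6, was at 0.45 (SE 0.128, edgeR adjusted p = 0.068) and passed without DMSO 3 at 0.58 (edgeR adjusted p = 5.95e-05). None of 11 tested genes for other ubiquitin-like modifiers passed or had an unadjusted p under 0.05, with a median log2 fold change of -0.08. The calls in these lists depended on DMSO 3 and on library weights. Without DMSO 3, when 21.9% of all tested genes were called, 6 E2 genes and 1 protease gene were higher and 1 E2 gene and 2 modifiers lower. With limma-voom and library quality weights, which called 23.2% of all tested genes, 7 E2 genes, 1 protease gene and 1 HERC gene (HERC4) were higher, and 1 E2 gene, 1 modifier and 2 HERC genes (HERC1 and HERC2) lower. DESeq2 and unweighted limma-voom called 0 genes among the E1 enzymes, modifiers, TRIM25 and ARIH1, proteases and other HERC genes. Of the E2 genes they called 3 and 2 higher, where 5.3% and 3.96% of all tested genes were called.

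Upstream of these genes, 2 of 10 tested genes of interferon signalling and USP18 partners rose and none fell. Their median log2 fold change was 0.15, and 20% were called, against 3.87% of all tested genes. IRF9, the DNA-binding subunit of the interferon-activated complex, had 15.8, 21.4 and 12.7 CPM in inhibitor 1, 2 and 3 and 8.92, 10.8 and 9.57 CPM in DMSO 1, 2 and 3. All inhibitor values lay above all DMSO values, and the log2 fold change was 0.77 (SE 0.194, edgeR adjusted p = 0.0412). SKP2, an F-box protein gene of a ubiquitin ligase reported to target USP18, had 58.7, 60.0 and 56.9 CPM against 37.3, 38.3 and 33.5 CPM, a difference of 0.68 on the log2 scale (SE 0.123, with an edgeR adjusted p of 0.00667). Like UBA7, SKP2 had nearly the same level in all 3 inhibitor libraries.

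The call of IRF9 was lost without inhibitor 1 (edgeR adjusted p = 0.139), inhibitor 2 (0.271), DMSO 1 (0.0716) or DMSO 2 (0.106). That of SKP2 was lost without inhibitor 1 (0.0545) or inhibitor 2 (0.0679). IFNAR2, the chain that USP18 binds, did not pass at 0.45 (SE 0.21, edgeR adjusted p = 0.253), but did without DMSO 3, at 0.75 (edgeR adjusted p = 0.000701). STAT2 was at 0.17 (SE 0.126, edgeR adjusted p = 0.504).

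Transcripts of the interferons themselves were nearly unread. Of 12 interferon ligand genes, 7 had no count in any library. Leaving out IFNE, the other 11 had 5 counts in all and no more than 1 in any library, too few to detect any difference. A count of 0 over a group allows a level of up to 0.0906 CPM in the inhibitor group and 0.0861 CPM in the DMSO group (3 counts over the group, counting error only). IFNE was tested and stood at -0.22 on the log2 scale (SE 0.361, with an edgeR adjusted p of 0.798). ITGB2, a chain of the leukocyte receptor for free ISG15, was at 2.81 to 3.68 CPM with inhibitor and 2.21 to 2.36 CPM with DMSO and did not pass (edgeR adjusted p = 0.271), while its partner ITGAL had no count in any library.

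Of 23 genes for proteins reported to carry ISG15, 5 rose and 1 fell, or 26.1% called against 3.87% of all tested genes. Their median log2 fold change was 0.06. The list shares 5 genes with that of other interferon-stimulated genes, and 4 of the 6 called genes are among them. The largest rises were in the antiviral genes IFIT1 at 2.57 (SE 0.367), MX1 at 2.05 (SE 0.313) and IFIT3 at 1.997 (SE 0.353). IFIT3 was not called without inhibitor 1 (edgeR adjusted p = 0.0521). Outside the interferon list, PCNA, the sliding clamp of DNA replication, rose by 0.64 (SE 0.134, edgeR adjusted p = 0.0161). Leaving out inhibitor 1, 2 or 3 gave 2, 3 or 4 risers in this list, and leaving out DMSO 2 gave 4. In these fits 0.432%, 0.334%, 0.607% and 0.645% of all tested genes were called higher. Leaving out DMSO 3 gave 8 risers and 4 lower genes, where 10.8% of all tested genes were called higher and 11.1% lower.

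Among the 29 tested genes of the list of other interferon-stimulated genes, 15 rose and none fell. Their median log2 fold change was 0.93, and 51.7% were called, against 3.87% of all tested genes. The largest were OAS2 at 4.14 (SE 0.592), RSAD2 at 3.89 (SE 0.669), IFI6 at 3.62 (SE 0.368) and BST2, which encodes tetherin, at 3.60 (SE 0.516). OAS2 and RSAD2 had 11 and 7 counts over the DMSO libraries, so their fold changes are imprecise, and RSAD2 was not called without inhibitor 2 (edgeR adjusted p = 0.0511). Leaving out inhibitor 1 or inhibitor 2 left 9 risers and leaving out inhibitor 3 left 15. Of all tested genes, 0.432%, 0.334% and 0.607% were then called higher. Leaving out DMSO 1, 2 or 3 gave 13, 11 or 21 risers, against 1.73%, 0.645% and 10.8% of all tested genes. Without DMSO 3, 1 gene of this list was also lower. The lists were written with earlier results of these libraries known, so their counts are descriptions.

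**Figure D5:**
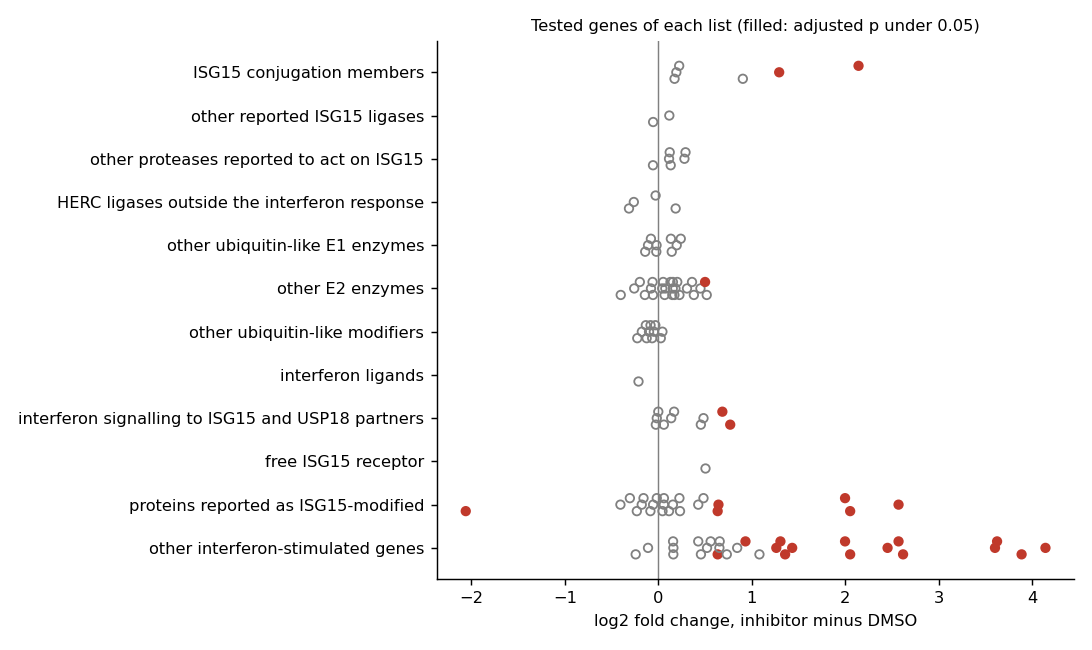
Log2 fold change, inhibitor minus DMSO, of each tested gene in the lists, filled red where the edgeR adjusted p is under 0.05. Filled genes are 2 of 6 members and 15 of 29 other interferon-stimulated genes, against 3.87% of all tested genes. None of the other ubiquitin-like E1 enzymes or modifiers is filled.

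Totals lay between 9162281 (DMSO 3) and 13184553 (DMSO 2) counts, with 13452 to 13913 genes detected per library. DMSO 3 differed from the other DMSO libraries by a median absolute log2 difference of 0.248 to 0.317, against 0.156 between DMSO 1 and 2 and 0.122 to 0.13 among the inhibitor libraries. All 8 mesenchymal markers were read at 1 CPM or more, and their sum lay between 11131 and 12621 CPM. Of 7 leukocyte markers, PTPRC and CD3E were at 0 in every library, and the summed level was 3.85 to 5.62 CPM with inhibitor and 3.04 to 3.35 CPM with DMSO, of which ITGB2 made up most. CDH1 (epithelial), VWF (endothelial) and LILRA4 and CLEC4C (plasmacytoid dendritic) were at 0 throughout, and epithelial markers were otherwise read through KRT18. The sums were 116 to 136 and 119 to 138 CPM for 5 epithelial markers, 1.52 to 3.10 and 1.37 to 1.91 CPM for 4 endothelial markers, and 13.2 to 16.2 and 10.1 to 14.8 CPM for 4 plasmacytoid dendritic markers, with inhibitor and DMSO respectively, the last almost wholly TCF4.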

How the data were processed

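RNA of 3 inhibitor and 3 DMSO dishes was amplified with an Ion AmpliSeq whole-transcriptome panel, per the labels' protocols, and read on a Proton sequencer. Each gene is read through a short product, so amplification enters its count. Intervals of shares and of summed counts, and limits for counts of 0, reflect counting error alone, since no molecular identifiers are named, while those of log2 fold changes come from the edgeR SE and include the spread between libraries. Values deposited by the authors are unnormalized counts per symbol. DESeq2 1.20.0, HTSeq and the build hg19 are listed in the submitters' processing notes, without roles, and which aligner was used is not stated there.

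Counts were tested with edgeR 4.0.16 in R 4.3.3: filterByExpr (minimum count 10, minimum total 15), TMM scaling, the quasi-likelihood test of group, and Benjamini-Hochberg adjustment over 11216 genes at 0.05. SE is the absolute log2 fold change divided by the root of F. CPM follow the TMM scaling, with a prior count of 2 for log2 CPM. Ratios used a pseudocount of 0.5. Groups and replicate numbers came from the titles. The titles do not say that a number marks a shared batch, so no block was used in the main fit. Over all tested genes the same-numbered libraries did not deviate together (correlations -0.0414, -0.0378 and -0.0882). For ISG15, HERC6, UBE2L6 and HERC5, however, replicate 3 was the lowest library of both groups.

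The members and lists were chosen with earlier results of these data known. Named were the 6 members, up to 4 called genes with the largest change of each list, direct relatives, and the genes of most similar pattern, besides the interferon ligand IFNE, the receptor genes ITGB2 and ITGAL and single markers, chosen after their values were seen. Values of some list genes and markers are not reported here. Alternatives were other scaling, filters and tests (limma 3.58.1, DESeq2 1.42.0), a replicate block, GC trend removal (GENCODE transcripts, matched for 98.9% of tested genes) and leaving out each library. Fits were tested on simulated counts with 200 changed genes. Promoter repeats were counted by a rule chosen after the sequences had been seen. An earlier scan of the promoters for interferon-stimulated response elements had also been seen by then and is not reported here.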

Additional observations from a re-analysis of the deposited data

How the results depend on the processing

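Of 15 alternatives, ISG15 kept its direction and call in all 15, with log2 fold changes from 1.96 to 2.42. HERC6 kept its direction in all 15 and its call in 12, and USP18 its direction in all 15 while passing in 4, which besides the 2 left-out libraries given above were no filter on low counts (edgeR adjusted p = 0.00401) and limma-voom with library quality weights (adjusted p = 0.0138). HERC5, which the filter at a mean count of 50 removed, turned to -0.19 without inhibitor 1 and -0.0206 without DMSO 3, within -0.19 to 0.481 over the left-out libraries. With library totals only TRIM25 turned to 0.00378 and HERC3 to 0.0298. Without DMSO 1 TRIM25 turned to 0.0699, UBA1 to 0.0443 and ARIH1 to -0.0519, within -0.191 to 0.0699, -0.156 to 0.0443 and -0.0519 to 0.306 over the left-out libraries, none of them called at the turned value.

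The count of members called was 1 to 3 with 1 library left out, and 2 or 3 under every other alternative. Genes called in all, 434, became 831 with no filter on low counts, 2606 with library quality weights, 716 with the GC trend removed, and 99 to 2496 with 1 library left out. List genes called outside the members, 20, became 45 with library quality weights and 10 to 43 with 1 library left out. Library totals only gave 335 higher and 163 lower genes in place of 219 and 215. With a replicate block 2 members, 327 genes and 18 list genes were called, and UBE2G1 lost its call (edgeR adjusted p = 0.0674); the libraries share only a number. IRF9 was just missed by limma-voom (adjusted p = 0.05). UBE2L3 passed with library totals only, no filter, DESeq2, the GC trend removed and quality weights. The difference in each member ratio moved by less than the SD pooled over both groups, though not always by less than that of the inhibitor group, and UBE2L6 to UBE2L3 turned to 0.0313 without DMSO 2. The cause of these shifts was not tested. With 7 to 26 counts a library, HERC5 is limited by depth.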
